A study of Mus musculus with 2 samples.

Results

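The respiratory chain genes of the mouse hippocampus were examined in animals fed astaxanthin (ASX), a red carotenoid of the alga Haematococcus pluvialis. The set was defined by name: every gene on the array whose RefSeq accession carries a mouse symbol starting with Nduf, Uqcr, Atp5, Sdh followed by a to d, or Cox followed by 4 to 8. The rule found 89 genes, read by 112 probes, among 33266 genes and transcripts on the array. Of the 89, 81 encode subunits or close isoforms of the complexes and 8 encode assembly factors of complexes I and II (Ndufaf and Sdhaf symbols). A further 11 protein-coding genes that fit the name rule had no probe named here: Ndufa11, Ndufa4l2, Ndufaf2, Ndufaf6, Ndufaf8, Ndufb1, Ndufb4b, Ndufb4c, Sdhaf3, Uqcr10 and Uqcrc2.

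Both diet groups were male C57BL/6J mice, 11 weeks old at the outset, 26 to 28 g in weight and caged singly. For 4 weeks, after 1 week of acclimatization, the ASX mice ate powdered chow containing 0.5% (w/w) of a powder with 2% astaxanthin, and the control mice (0%) ate chow with placebo powder. Total hippocampal RNA of both diets was hybridised together on 2 two-colour arrays, with the ASX RNA in Cy5 on array 1 and in Cy3 on array 2. The title of each array names mouse hippocampi, the ASX diet and n = 4. It does not say what is counted or whether RNA was pooled. No label names separate RNA extracts, so the swap was treated as technical. There is thus 1 replicate of the diet comparison and no test of the diet is possible, and an SD is between the arrays (n = 2) unless it is said to be over genes or spots. Such an SD between the arrays includes the difference between the dyes, which the mean of both arrays cancels. It is thus no measure of the error of that mean. In RNA of a whole tissue, fewer cells of a type and less RNA per cell cannot be told apart.

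The respiratory chain sits in the inner mitochondrial membrane. Complex I (NADH dehydrogenase, Nduf genes) and complex II (succinate dehydrogenase, Sdh genes) pass electrons to ubiquinone, complex III (Uqcr genes) passes them to cytochrome c, and complex IV (cytochrome c oxidase, Cox genes) passes them to oxygen. Complexes I, III and IV pump protons, and complex V (ATP synthase, Atp5 genes) uses the proton gradient to make ATP, on which synapses and ion pumps of the brain depend. All subunits measured here are encoded in the nucleus and are assembled, except in complex II, with subunits encoded in mitochondrial DNA.

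The members' levels lay close together in the 2 diets. A gene was taken as measured where the ASX and the control signal each stood well above background on each array, as for 23603 genes and transcripts. That held for 87 of the 89 members. Their log2 ratios of ASX over control, averaged over both arrays, ran from -0.16 for Ndufs8, an iron-sulfur subunit of complex I, to 0.15 for Cox5a, a matrix-side subunit of complex IV. The widest of these is 1.12-fold. At least 1.2-fold higher on both arrays were 0 members (1.44% of all measured genes), and 0 were at least 1.2-fold lower on both (0.314%). At 1.5-fold the counts were also 0 and 0, against 0.0636% and 0.0212% of all genes. Within 1.1-fold in the mean were 85 of 87 members, or 97.7%, against 82.4% of all measured genes and 94.2% of genes with a symbol in the top brightness class. That class holds the genes above the 75th percentile of mean log2 brightness, and 82 of the 87 members lie in it. Of its genes with a symbol, only 0.0437% were at least 1.2-fold higher on both arrays and 0.175% at least 1.2-fold lower. Counts of 0 among 87 members are thus near the shares of genes of like brightness.

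**Figure D1:**
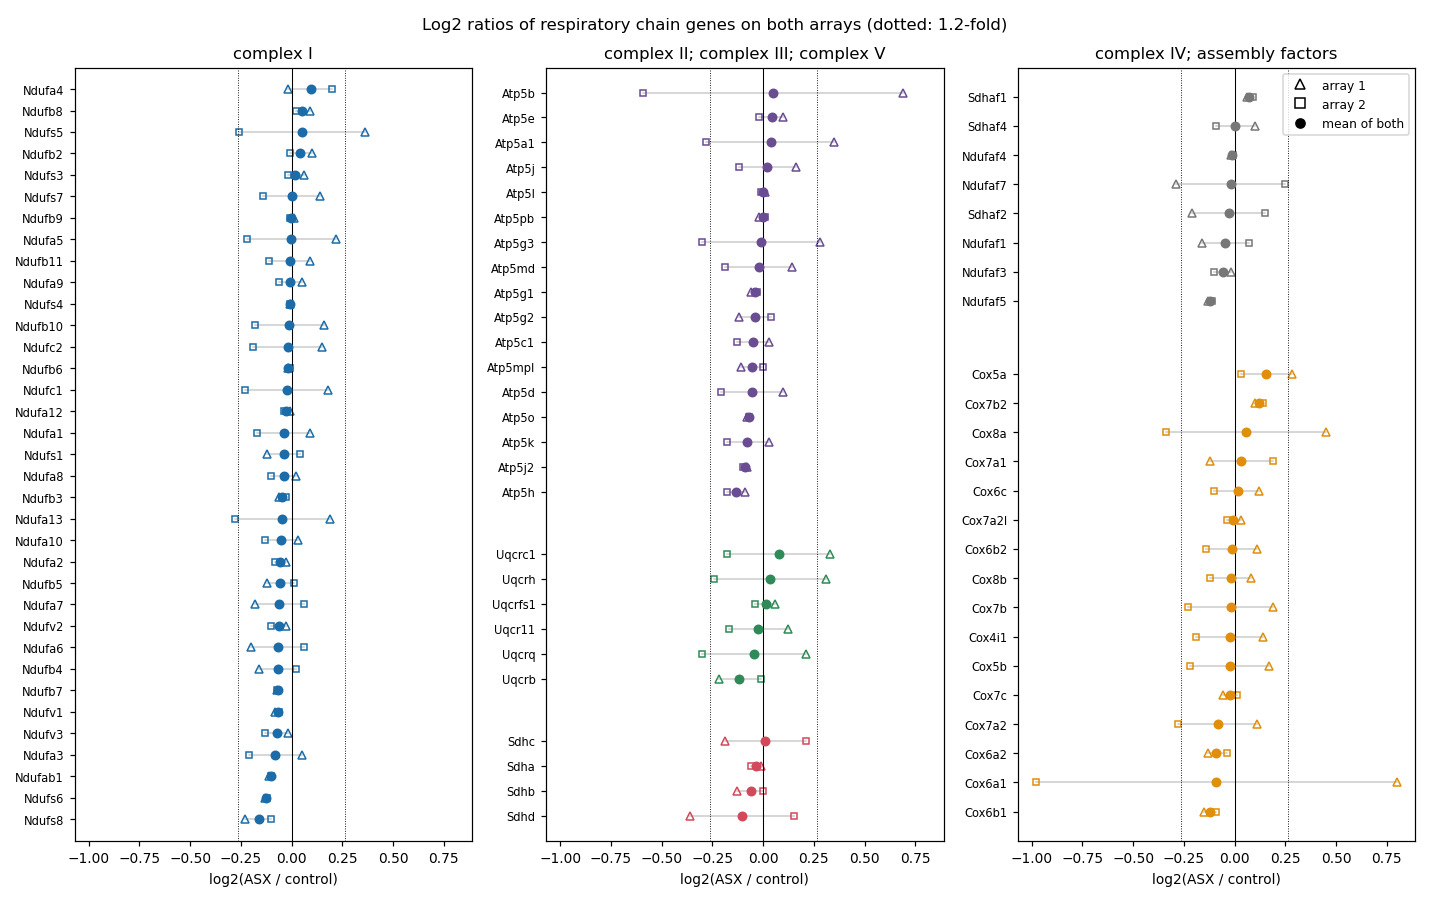
Log2(ASX / control) of the measured members, except 1 complex I gene not drawn, on array 1 (open triangles), array 2 (open squares) and in the mean (filled circles), by complex, with dotted lines at 1.2-fold. The means lie between -0.16 and 0.15, while single arrays reach 0.80 and -0.98 for Cox6a1.

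The median log2 ratio over the 87 members was -0.025, from 0.024 on array 1 and -0.092 on array 2. These medians differ by an SD of 0.082, more than the median's distance from 0. That SD includes the dye difference, so it does not give the error of the median over both arrays. Over all measured genes the median was -0.0042. It was -0.019 for the genes that have a symbol, and -0.0058 for those of them in the top brightness class. Below 0 on both arrays were 25 members, 28.7%. The share was 23.0% of all genes, 26.4% of those with a symbol and 18.5% of those with a symbol in the top brightness class. Only 4 members, 4.60%, were above 0 on both arrays, against 22.2%, 14.3% and 14.0% in the same sets. The other 58 members (66.7%) had opposite signs on the arrays, as 54.8% of all genes did. The 4 above 0 on both were Cox5a, Cox7b2, Ndufb8 and Sdhaf1. With brightness held in a band, the 56 members with a mean log2 brightness between 13 and 16 had a median of -0.040 and the 2324 genes of that band one of -0.0011. On array 1 alone the order was the reverse, with 0.0019 for the members and -0.015 for the band, and on array 2 the medians were -0.064 and 0.015. The spread of the mean ratio over the measured genes of the set was an SD of 0.056. Probes spotted 10 times give the scatter of single spots: their median SD over spots was 0.034 for 200 probes and 0.019 for the 47 of them in the top brightness class. Every member's probe is a single spot.

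Complex I had 36 measured genes with a median of -0.040, from -0.011 on array 1 and -0.072 on array 2 (SD 0.043). Both arrays put 13 of the 36 below 0 and 1 above. The shares were 23.0% and 22.2% of all measured genes, and 18.5% and 14.0% of genes with a symbol in the top brightness class. Its 7 nuclear core subunits, which hold the cofactors that carry electrons from NADH to ubiquinone, had a median of -0.063, and the 29 supernumerary subunits one of -0.040. Ndufs8, which carries a pair of iron-sulfur clusters, stood lowest. Its normalised log2 signals were 12.04 in the ASX RNA and 12.26 in the control RNA on array 1, and 12.00 and 12.09 on array 2. The ASX signal was thus below the control signal on both arrays, by -0.23 and -0.10, a mean ratio of 0.893 (SD 0.09 on the log2 scale).

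The other core subunits lay nearer to 0. In the arm that oxidises NADH, Ndufv1, which binds NADH and flavin, had -0.08 and -0.06 on arrays 1 and 2. Ndufv2 had -0.03 and -0.10, and Ndufs1, the largest iron-sulfur subunit, had -0.12 and 0.04. These 3 genes had means between -0.069 and -0.040. In the arm that binds quinone, Ndufs3 had 0.06 and -0.02, and Ndufs7 0.14 and -0.14. Both changed sign between the arrays.

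Among the supernumerary subunits of complex I, Ndufs6, which binds zinc, had the lowest mean at -0.13, from -0.13 and -0.12. Its log2 signals were 14.52 (ASX) and 14.66 (control) on array 1, and 14.47 and 14.59 on array 2. Ndufab1, the mitochondrial acyl carrier protein, had -0.11 and -0.10. For both genes the arrays differed by an SD of only 0.01, so the ASX signal was lower by nearly the same small amount with either dye. Ndufa4 had the highest mean of the Nduf genes, 0.093, from -0.02 and 0.20. The Ndufa4 protein is now counted as a complex IV subunit; with the gene moved there the medians were -0.040 for complex I and -0.018 for complex IV. Ndufb8 and Ndufs5 followed, with means of 0.053 and 0.051. Ndufb8 was above 0 on both arrays, at 0.09 and 0.02, while Ndufs5 had 0.36 and -0.26.

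The 4 genes of complex II, which also serves in the tricarboxylic acid cycle, had a median of -0.049, from -0.16 on array 1 and 0.079 on array 2 (SD 0.17). Sdha, the flavoprotein that oxidises succinate, had -0.01 and -0.06, and it alone of the 4 was below 0 on both arrays. Sdhb, the iron-sulfur subunit, had -0.13 on array 1 and a value close to 0 on array 2. The membrane anchors moved with the dye. Sdhd gave log2 signals of 14.12 (ASX) and 14.48 (control) on array 1 but 14.45 and 14.29 on array 2, that is -0.36 and 0.15. Sdhc gave -0.19 and 0.21. In both, the RNA labelled with Cy3 was the brighter on each array, whichever diet it came from.

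Complex III had 6 measured genes and a median of -0.0057, from 0.17 on array 1 and -0.17 on array 2 (SD 0.24). Uqcrb, a small subunit near the quinone site, was the only one below 0 on both arrays, with -0.22 and -0.01. Uqcrc1, one of the large core proteins, had the highest mean at 0.077, from 0.33 and -0.18. Uqcrh, the hinge protein, had 0.31 and -0.24, and Uqcrfs1, the Rieske iron-sulfur protein, had 0.06 and -0.04. The small subunits Uqcrq and Uqcr11 had means of -0.044 and -0.023. All but Uqcrb were brighter in Cy5 on both arrays, so their ratios changed sign with the swap.

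Complex IV had 16 of its 18 genes measured, with a median of -0.019, from 0.11 and -0.11 (SD 0.16). Cox5a had the highest mean of all members. Its log2 signals were 16.17 (ASX) and 15.89 (control) on array 1 and 16.16 and 16.14 on array 2, so the ratio of 0.28 on array 1 shrank to 0.03 on array 2 (mean fold 1.11, SD 0.18 on the log2 scale). Cox6b1, which lies on the cytochrome c side of the enzyme, had the lowest mean at -0.12, from -0.15 and -0.09. Cox7b2 had 0.10 and 0.14, but from a dim probe with a mean log2 brightness of 7.5, the lowest among the measured members. Cox8a had a mean of 0.055, from 0.45 and -0.34.

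Several complex IV subunits come in tissue isoforms. Of the pair Cox4i1 and Cox4i2, the common form Cox4i1 had 0.14 and -0.19, and Cox4i2 was well above background on array 1 for both RNAs and on array 2 for neither. Cox6a1 had 0.80 and -0.98, and its heart and muscle form Cox6a2 had -0.13 and -0.04; their means were both -0.090. Cox7a2 had 0.11 and -0.28, against -0.12 and 0.19 for the heart and muscle form Cox7a1. Cox8b, another muscle form, had 0.08 and -0.12, and the testis forms Cox6b2 and Cox8c had 0.11 and -0.14 for the first and no spot well above background for the second. In each pair with both forms measured, the ranges of the forms over the arrays overlapped. Cox7a2l, which takes part in joining complexes III and IV, had 0.03 and -0.04.

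Complex V had 17 measured genes and a median of -0.042, from 0.025 and -0.12 (SD 0.10). Below 0 on both arrays were 5 of them and above 0 were 0, against 23.0% and 22.2% of all measured genes. The catalytic head and central stalk (5 genes) had a median of 0.037. All 5 were brighter in Cy5 on both arrays, as were 6430 of all 23603 measured genes. Atp5b, the catalytic beta subunit, had 0.69 and -0.59, and Atp5a1, its alpha partner, 0.35 and -0.28. The dimmer probes of Atp5b had means of -0.05 and -0.07, and the dimmer probe of Atp5a1 one of 0.08. With Atp5c1 at -0.048 and Atp5d at -0.055, either dimmer Atp5b probe would put the median of the 5 below 0. The sign of that median thus depends on the Atp5b probe. Atp5e, a stalk subunit, had 0.10 and -0.02. In the rotor ring, Atp5g1, Atp5g2 and Atp5g3 encode the same mature protein from separate genes. Their means were -0.042, -0.042 and -0.011, with 0.28 and -0.30 on the single arrays for Atp5g3. The ring and membrane part together (8 genes) had a median of -0.042, and each of the 8 had a mean below 0. So did 12265 of all 23603 measured genes. Atp5h, of the peripheral stalk that holds the head in place, had the lowest mean of complex V. Its log2 signals were 16.34 (ASX) and 16.43 (control) on array 1 and 16.27 and 16.45 on array 2, a mean ratio of 0.912. Atp5j2 and Atp5k, small membrane subunits, had means of -0.089 and -0.079.

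The 8 assembly factors had a median of -0.025, from -0.075 and 0.030 (SD 0.074). Ndufaf5, which modifies a core subunit of complex I, had the lowest mean at -0.12, from -0.13 and -0.11. Ndufaf3 and Ndufaf1 followed with means of -0.058 and -0.048. Sdhaf1, which helps to load iron-sulfur clusters into complex II, was the highest at 0.072, from 0.06 and 0.09. Sdhaf4 and Ndufaf4 had means of 0.0028 and -0.013. Ndufaf5, Ndufaf3 and Ndufaf4 were below 0 on both arrays and Sdhaf1 was above on both.

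Set side by side, the medians of the 5 complexes lay within 0.043 of each other, with complex III highest and complex II lowest. On array 1 the same complexes stood at the top and bottom and were 0.33 apart. On array 2 their order was the reverse, with complex II highest and complex III lowest, 0.25 apart. The quartiles of complex I ran from -0.068 to -0.0075, those of complex IV from -0.040 to 0.019 and those of complex V from -0.055 to -0.0016, so the complexes overlapped. No gap between the medians of any pair of complexes exceeded the larger of their SDs between the arrays. Those SDs are no yardstick for the gaps, since they include dye differences that the means over both arrays cancel.

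The largest values on single arrays followed the dye and not the diet. The mean Cy5 over Cy3 ratio (array 1 minus array 2 of the turned values, over 2) gives the dye part, which is positive where Cy5 was brighter on both. At least 1.2-fold brighter in Cy5 on both arrays were 5 members (5.75%): Cox6a1 with a dye part of 0.89, Atp5b with 0.64, Cox8a with 0.40, Atp5a1 with 0.31 and Atp5g3 with 0.29. This compares with 1.00% of all genes and 2.24% of the top brightness class. For Cox6a1 the log2 signals were 18.13 (ASX) and 17.32 (control) on array 1 and 17.00 and 17.99 on array 2. Over the 87 members the dye part correlated with mean log2 brightness at r = 0.54 (Spearman 0.65), points that share the same 2 arrays, while over all genes the same correlation was 0.01 (Spearman -0.04). The 14 members brighter than 16 had a median dye part of 0.25 and the 161 genes of that brightness one of 0.33, but from 13 to 16 the medians were 0.028 for members and -0.016 for all genes. Across the members the arrays correlated at r = -0.81 (Spearman -0.70), against -0.03 over all genes and -0.49 over the top brightness class. Genes in these correlations are not independent replicates.

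**Figure D2:**
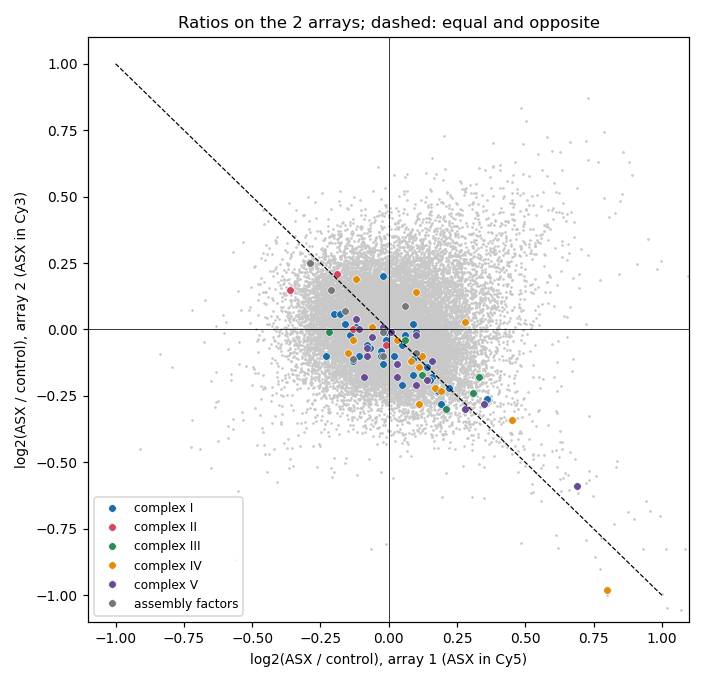
Log2(ASX / control) on array 2 against array 1 for all measured genes (grey; points beyond the axes are not drawn) and the members (coloured by complex), with a dashed line where the arrays are equal and opposite. The members lie along that line, from Sdhd and Sdhc at upper left to Atp5b and Cox6a1 at lower right, which is where a difference between dyes puts a gene.

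**Figure D3:**
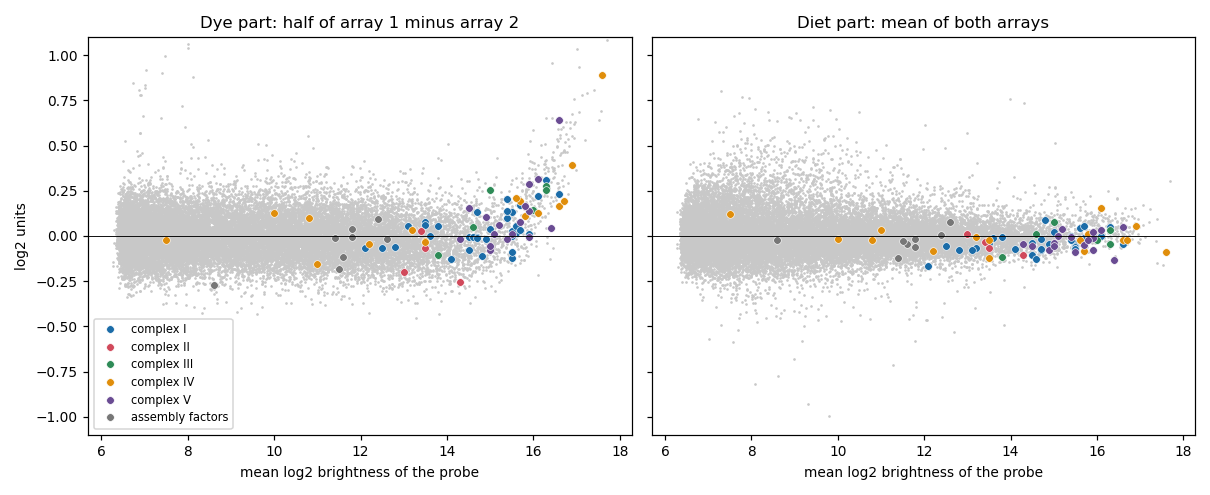
Dye part (left) and diet part (right) of the log2 ratio against the probe's mean log2 brightness, for all measured genes (grey) and the members (coloured). Diet part is here a name for the mean of both arrays, in which a difference between diets cannot be told apart from one between these samples. The dye part of the brightest members reaches 0.89 for Cox6a1, while their diet part stays between -0.13 and 0.15.

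Further probes for the same gene gave a check inside the arrays. Another measured probe existed for 17 members, and the mean ratios of the brightest and the next had the same sign in 14 of the 17. The median absolute difference between them was 0.046 and the largest 0.12, for Atp5h, whose next probe had a mean of -0.01 against -0.13. Since 66 of the 87 measured members had a mean below 0, probes of unrelated members would also often share a sign. Ndufs6 was read by 3 probes. They gave -0.13 and -0.12, -0.13 and -0.11, and -0.14 and -0.14 on arrays 1 and 2, so their values nearly coincided. Both Ndufab1 probes and all 3 Ndufaf4 probes were likewise below 0 on both arrays, with means of -0.10 and -0.10 for Ndufab1 and -0.01, -0.07 and -0.27 for Ndufaf4. Apart from these and Ndufs6, none of the 17 members had all its measured probes below 0, or all above, on both arrays. The dye part differed between the 3 probes of Atp5b, which also differed in brightness. It was 0.64 for the brightest, with a mean log2 brightness of 16.6. The others, at 14.5 and 12.0, had dye parts of 0.01 and 0.04 and means of -0.05 and -0.07. The sign of the mean thus depended on the probe for Atp5b, as it did for Uqcrc1 (0.08 and -0.03) and Sdha (-0.04 and 0.02).

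Every sign above is relative to the scaling of the arrays. With each array centred on its median in place of loess, the median of all genes was -0.10, that of genes with a symbol in the top brightness class -0.22, and that of the members -0.26. Scaled on the spike-in RNAs, the same medians were -0.31, -0.42 and -0.47. The members thus lay 0.046 below the top brightness class of all genes with either, and 0.021 below it with loess. This gap had opposite signs on the single arrays with loess: the members minus that class gave 0.036 on array 1 and -0.10 on array 2. Cox5a had a mean of 0.14 with the scanner software's log ratio, -0.10 with median centring and -0.30 with spike-in scaling. Ndufb8 and Sdhaf1 likewise turned negative with median centring (-0.19 and -0.14), while Cox7b2 had 0.15 there and -0.05 with spike-in scaling. With median centring 7 members were at least 1.2-fold lower on both arrays (among them Cox6b1, Ndufaf5, Ndufs8 and Uqcrb), as were 5.94% of genes with a symbol in the top brightness class.

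**Figure D4:**
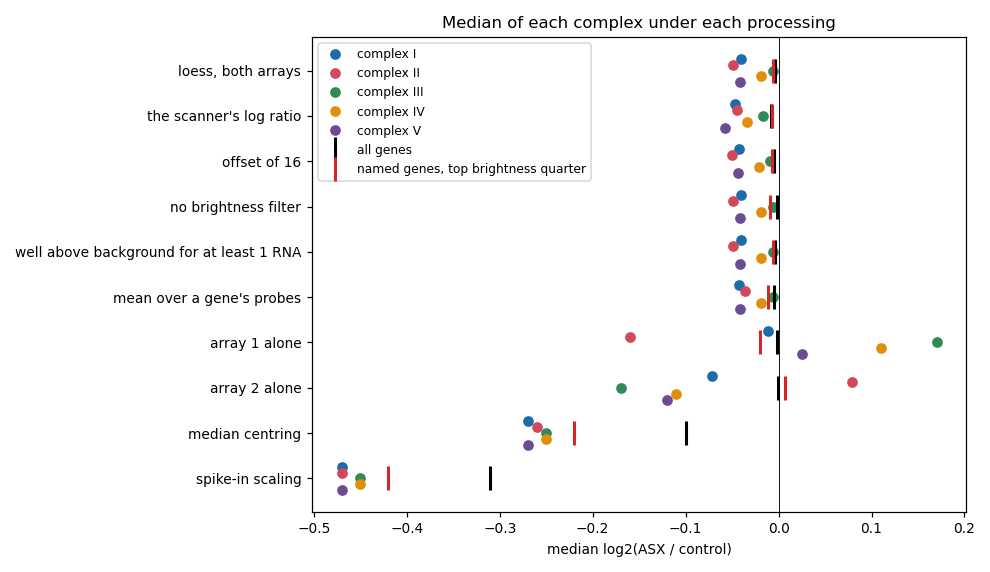
Median log2(ASX / control) of complexes I to V (coloured circles), of all genes (black bars) and of genes with a symbol in the top brightness class (red bars) under each processing. The complexes keep within 0.05 of each other where both arrays are used and shift together, to about -0.26 with median centring and -0.47 with spike-in scaling; on the single arrays they spread apart, with complex III highest and complex II lowest on array 1 and the reverse on array 2.

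Other mitochondrial and metabolic genes had small ratios too, though some lay beyond the range of the members. In these lists, markers aside, 0 genes were at least 1.2-fold apart in either direction on both arrays. Of all measured genes, 1.44% were that much higher and 0.314% that much lower. The shares were 0.0437% and 0.175% of genes with a symbol in the top brightness class. Within 1.1-fold in the mean were 90% of the measured assembly factors outside the name rule, 91.3% of import genes and 97.4% of mitochondrial ribosomal proteins. The share was 82.4% of all measured genes and 94.2% of genes with a symbol in the top brightness class. Below 0 on both arrays were 23.0% of all measured genes and 26.4% of those with a symbol. Above 0 on both were 22.2% and 14.3%, for comparison with the counts in this and the next paragraph. The 30 measured assembly factors outside the name rule had a median of -0.034, with 10 below 0 on both arrays and 0 above; Taco1 and Sco1, which serve the making of complex IV, had means of -0.17 each. Electron carriers and ubiquinone synthesis genes (15 measured of 18) had a median of -0.035, with 3 below and 1 above, and Coq10b at -0.14 and Coq6 at -0.10. The 76 mitochondrial ribosomal proteins, which translate the subunits encoded in mitochondrial DNA, had a median of -0.044, with 21 below and 3 above, and Mrps6 at -0.24 and Mrpl9 at -0.14. Protein import genes (23) had a median of -0.051, with 7 below and 3 above, and Timm22 at -0.17 and Timm13 at -0.14.

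Lists that feed or regulate the chain lay nearer to 0. Regulators of mitochondrial biogenesis (17 measured of 19) had a median of -0.0073, with 1 below and 2 above; Yy1 had a mean of 0.12, from -0.07 and 0.31, and Esrra -0.11, from -0.27 and 0.05. Genes of the tricarboxylic acid cycle and pyruvate dehydrogenase (18 of 19) had a median of -0.0016, with 3 below and 0 above, and Pdhx at -0.12 and Suclg1 at -0.09. Glycolysis genes (16 of 17) had one of -0.0036, with 0 below and 1 above. Aldoa, the aldolase gene, moved with the dye at 0.90 and -0.71, and Tpi1 had 0.06 and 0.09. Mitochondrial carriers, porins and antioxidant genes (22) had a median of -0.012, with 3 below and 1 above, and Gpx4 at -0.11 and Prdx5 at -0.07. Of the 13 subunits encoded in mitochondrial DNA, 0 had a probe named here. Symbols came only from RefSeq accessions, so the array may hold probes for these subunits that were not named.

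Markers of the labelled tissue and its neighbours are given beside these values. Of 12 hippocampal neuron markers, 10 had a probe and all 10 were measured, with a median of 0.052 (4 above 0 on both arrays, 0 below; Zbtb20 0.28, Tdo2 0.13). Striatal markers had a median of -0.21 over 8 measured of 9 (7 below; Penk -0.49; Gpr6 not well above background), and thalamic and habenular markers -0.15 over 7 of 8 (4 below, 1 above; Tnnt1 -0.46, Prkcd -0.32; Plekhg1 not well above background). Meningeal fibroblast markers had 0.19 over 9 (7 above; Bgn 0.28, Aldh1a2 0.25). Choroid plexus markers had -0.068 over 8 (5 below, 2 above; Aqp1 0.20, Otx2 -0.19), and muscle markers -0.040 over 9 of 11 (4 below, 1 above; Myh7 -0.37, Myh6 -0.34), with Ckm and Ckmt2 not well above background. Brown fat markers had -0.016 over 3 of 5 (2 below; Dio2 -0.08, Plin1 0.02), with Ucp1, which defines that tissue, and Adipoq not well above background. Among glia the medians were -0.042 for 7 astrocyte markers (1 above; Slc1a2 0.22, S100b -0.12), -0.051 for 6 oligodendrocyte markers (Mobp -0.12, Mbp -0.07) and -0.058 for 6 microglial markers (3 below; Tmem119 -0.17, P2ry12 -0.12). At least 1.2-fold lower on both arrays were 2 striatal, 1 thalamic and habenular and 1 muscle marker, and 0 markers were at least 1.2-fold higher. Of all measured genes, 0.314% were that much lower and 1.44% that much higher, while 23.0% were below 0 and 22.2% above on both arrays. The part of any of these tissues in the members' ratios was not tested.

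**Figure D5:**
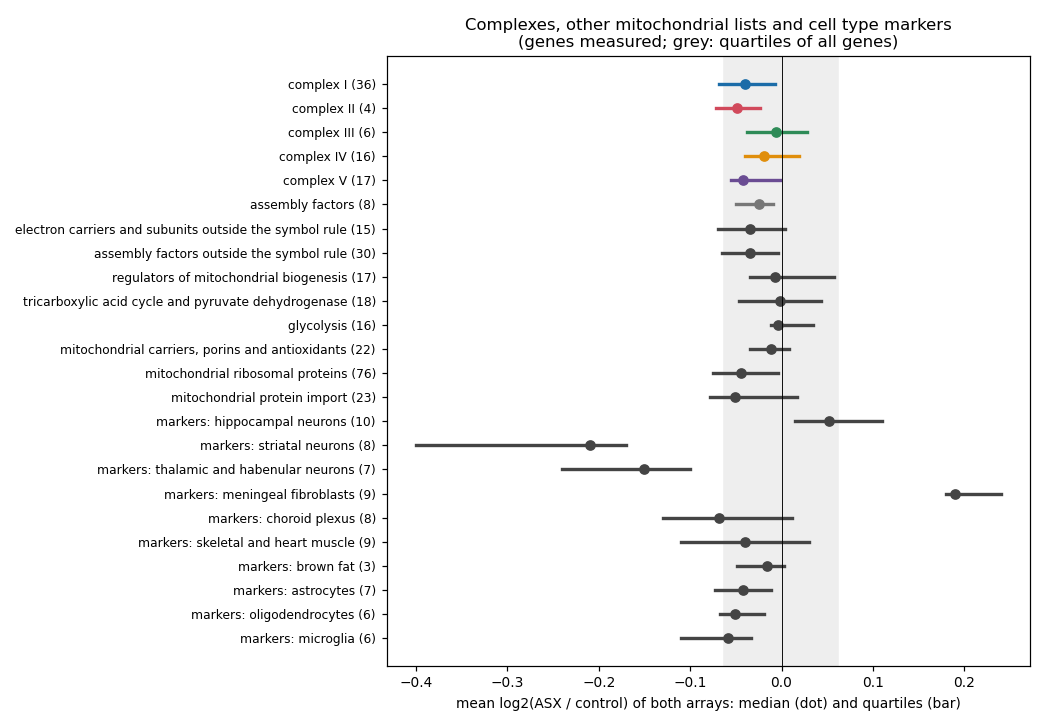
Median (dots) and quartiles (bars) of the mean log2(ASX / control) for the complexes, other mitochondrial lists and cell type markers, with the number of genes measured; the grey band runs between the quartiles of single genes, -0.063 and 0.062, and is no yardstick for a median. The medians of the complexes run from -0.049 to -0.0057, against -0.21 for striatal and 0.19 for meningeal markers.

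Some promoters of the members hold core letters of the motifs of nuclear factors that are known to drive respiratory genes, a feature that the name rule did not use. RefSeq windows of GRCm38.p6, 250 bases before each start, were found for 75 of the 89 genes (80 windows). Their median GC content was 57.2%, against 52.4% over all 32851 windows. Searched on both strands, the core of the motif of NRF1 (nuclear respiratory factor), GCGCATGC, was in 10% of the members' windows and in 2.26% of all, and the ETS core bound by GABPA, CCGGAAG, was in 17.5% and 6.91%. One or the other was in 20 windows, 25%, against 8.85% of all and 12.7% of windows with a GC content between the quartiles of the members'. The members' shares cover all 80 windows, also those outside that GC range, so this comparison is not matched for GC content. Both cores contain the letters CG. The median count of CG per window was 14 for the members, 9 for the windows of that GC range and 6 for all. The windows of that GC range thus also differed from the members' in CG, whose part in the shares was not tested. The core AAGATGG of YY1 was in 1.25% of the members' windows and 4.49% of all, and the letters TATAAA in 10% and 12.4%. In the windows of that GC range the shares were 3.44% for NRF1, 9.70% for ETS, 4.80% for YY1 and 5.48% for TATAAA. The members' share of TATAAA was thus below that of all windows and above that of the GC range. Some members' windows with TATAAA lie outside that range, such as Atp5l with a GC content of 44%. By complex, NRF1 or ETS cores were in 14.7% of 34 complex I windows, 66.7% of 3 complex II windows, 50% of 4 complex III windows, 15.4% of 13 complex IV windows, 33.3% of 18 complex V windows and 37.5% of 8 windows of assembly factors. A match is a run of letters and not a shown binding site.

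Both cores together occurred in the windows of 2 members, Cox6a1 and Atp5l, which are printed to show their place, followed by the windows of Cox5a and Ndufs8, the members with the highest and lowest mean ratios, which hold none of the NRF1, ETS or YY1 cores. Capitals mark those cores on either strand, and each sequence runs 5′ to 3′ on the gene's strand and ends at the base before the start. In Cox6a1 the NRF1 core occurs on both strands, overlapping. The windows lie at chr5:115348959-115349208 (minus strand) for Cox6a1, chr9:44920743-44920992 (minus) for Atp5l, chr9:57520982-57521231 (plus) for Cox5a and chr19:3912775-3913024 (minus) for Ndufs8.
Cox6a1: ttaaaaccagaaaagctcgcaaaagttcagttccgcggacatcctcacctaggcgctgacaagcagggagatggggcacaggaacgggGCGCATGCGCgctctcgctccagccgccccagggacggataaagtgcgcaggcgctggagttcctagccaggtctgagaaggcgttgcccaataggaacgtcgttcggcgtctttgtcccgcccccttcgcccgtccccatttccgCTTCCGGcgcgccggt
Atp5l: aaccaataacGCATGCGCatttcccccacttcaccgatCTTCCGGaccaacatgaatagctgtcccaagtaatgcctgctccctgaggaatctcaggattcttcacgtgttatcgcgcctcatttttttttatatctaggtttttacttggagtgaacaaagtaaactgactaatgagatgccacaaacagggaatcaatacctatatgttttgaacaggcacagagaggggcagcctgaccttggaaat
Cox5a: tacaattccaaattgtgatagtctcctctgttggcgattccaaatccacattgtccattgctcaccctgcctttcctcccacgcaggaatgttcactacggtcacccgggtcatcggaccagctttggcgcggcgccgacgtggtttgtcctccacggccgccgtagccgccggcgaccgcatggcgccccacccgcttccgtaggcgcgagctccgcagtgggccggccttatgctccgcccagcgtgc
Ndufs8: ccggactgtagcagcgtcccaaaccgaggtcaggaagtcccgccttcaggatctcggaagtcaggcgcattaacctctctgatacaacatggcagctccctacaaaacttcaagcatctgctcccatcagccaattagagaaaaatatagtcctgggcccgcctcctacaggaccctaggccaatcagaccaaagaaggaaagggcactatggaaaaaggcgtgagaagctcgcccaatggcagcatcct

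Beside these sequences, the mean log2 ratios were -0.090 for Cox6a1, -0.0016 for Atp5l, 0.15 for Cox5a and -0.16 for Ndufs8.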

How the data were processed

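Hippocampal RNA of 2 diets was measured on 2 two-colour Agilent arrays. The scanner software was Agilent Feature Extraction 11.0.1.1, per the submitters' processing notes. Per the file headers, each deposited intensity was the median of a spot's pixels per channel with a median local background, not normalized. The deposited log ratio was log10 of Cy5 over Cy3 from signals that the scanner software had background-subtracted and dye-normalized. The deposited value table of the series, on a log10 scale, equals the processed signals' ratio within 5e-08 and was not turned for the swap.

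Background was corrected here with limma 3.58.1 (R 4.3.3) by normexp (offset 50), and arrays were normalized by loess with control spots (1639 of 45018) at weight 0. Outlier spots (3) were left out and 0 were saturated. Signals per RNA were scaled between arrays (Aquantile). Ratios were turned to ASX over control and spots of a probe averaged. RefSeq accessions gave symbols (table of GRCm38.p6) for 23372 of 41171 probes. A gene took its brightest probe among those with both signals well above background on each array. Per spot and channel, 75.8% to 78.2% of mouse spots were well above background, and the number of arrays limits the precision. The normalization was tested on simulated data.

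The members, groups and lists were chosen with earlier results of these data known. Genes were named by rule: members at least 1.2-fold apart on both arrays, the 3 highest and lowest means per complex, isoform pairs, complex I core and Sdh subunits, members not measured, and the 2 largest absolute means per list. Others named were chosen after their values were seen, and a few genes that the rule names are not reported here. Alternatives were the scanner's log ratio, median centring, spike-in scaling, an offset of 16, other brightness filters, the mean over probes, Ndufa4 in complex IV and each array alone.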

Additional observations from a re-analysis of the deposited data

How the results depend on the processing

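No paired analysis was possible because the arrays were treated as 1 technical dye swap. Medians on single arrays aside, 56 of 80 recomputed values stayed within the SD between the arrays (medians) or within 1.5 times (counts). Of the other 24, most came from median centring and spike-in scaling. The SD includes the dye difference, so staying within it does not bound the error of a median. With median centring the median was -0.26 over all members. It was -0.27 in complex I, -0.26 in complex II, -0.25 in complex IV and -0.27 in complex V. Complex III also went to -0.25, but is not among the 24, because its SD between the arrays was as wide as 0.24. With this centring 1 member was above 0 and 44 were below 0 on both arrays, and 7 were at least 1.2-fold lower. These are 1.15%, 50.6% and 8.05% of the members, against 0.197%, 78.1% and 5.94% of genes with a symbol in the top brightness class. With spike-in scaling the medians were -0.47 over all members, -0.47 in complex I, -0.47 in complex II, -0.45 in complex III, -0.45 in complex IV and -0.47 in complex V, with 0 members above 0, 79 below 0 and 50 at least 1.2-fold lower. The last 2 are 90.8% and 57.5% of the members, against 96.2% and 55.7% of that class. On array 2 alone and array 1 alone, 20 and 46 members were above 0, 67 and 41 below 0, 0 and 9 at least 1.2-fold higher, and 8 and 2 at least 1.2-fold lower. In that class the shares on array 2 and array 1 were 51.6% and 43.9% above 0, 48.4% and 56.1% below 0, 2.69% and 4.70% at least 1.2-fold higher, and 3.58% and 3.89% at least 1.2-fold lower; the members' were 23% and 52.9%, 77% and 47.1%, 0% and 10.3%, and 9.20% and 2.30%. The medians on array 1 alone and array 2 alone were 0.024 and -0.092 over all members, -0.011 and -0.072 in complex I, -0.16 and 0.079 in complex II, 0.17 and -0.17 in complex III, 0.11 and -0.11 in complex IV, and 0.025 and -0.12 in complex V. The scanner's log ratio, the offset of 16, both other brightness filters, the mean over a gene's probes and the move of Ndufa4 changed no count by more than 1.5 times. With the arrays taken as 1 RNA pair, a difference between diets cannot be told apart from one between these samples.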
